A study of Mus musculus with 27 samples.

Results

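Neurexins, neuroligins and leucine-rich repeat transmembrane proteins (LRRTMs) were followed through the nuclei of the mouse hippocampus. The set held 9 genes of the 31053 listed in the files, picked by symbol: the neurexins Nrxn2 and Nrxn3, the neuroligins Nlgn1, Nlgn2 and Nlgn3, and Lrrtm1, Lrrtm2, Lrrtm3 and Lrrtm4. Each symbol matched 1 gene. Levels are given as CPM, the UMIs (individually captured RNA molecules) of a gene per 1000000 UMIs of the same library and nuclei class.

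Neurexins sit mainly in the presynaptic membrane and bind partners across the synaptic cleft. Neuroligins and LRRTMs are postsynaptic partners that compete for neurexin binding, and together these families help to set which synapses form and how strong they are. Nlgn1 is best known at excitatory synapses, Nlgn2 at inhibitory synapses and Nlgn3 at both, while LRRTMs act at excitatory synapses, where Lrrtm4 also binds heparan sulfate proteoglycans such as glypicans.

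The study crossed mice that carry P301S human tau, a dementia-linked form driven by the mouse Prnp promoter, with mice that lack Cgas, the gene of a sensor of cytosolic DNA. Littermates were used, and the nuclei came from frozen hippocampi, sorted by DAPI. Each of 27 libraries is 1 mouse, and the text of the study gives ages of 8 to 9 months in one place and up to 10 months in another. Among mice free of the transgene, 5 were Cgas+/+ (2 of them female), 2 were Cgas+/- and 2 were Cgas-/-, the last 4 all male. The transgenic mice were P301S Cgas+/+, P301S Cgas+/- or P301S Cgas-/-, with 3 of either sex for each genotype. No treatment is given for any group.

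Total UMIs per library ran from 46091490 to 79484316, and 204852 nuclei were kept. Any pair of libraries shared between 0.101% and 0.570% of the barcodes of the smaller one. Nuclei classes were named from marker genes and are called "-like" on that account, since no annotation of the nuclei was used here. Excitatory neuron-like nuclei numbered 81782, inhibitory neuron-like nuclei 12311, oligodendrocyte-like nuclei 45638, astrocyte-like nuclei 26888, microglia-like nuclei 11413 and oligodendrocyte progenitor-like nuclei 6994. Within the excitatory class, 19878 nuclei were dentate granule-like, 12990 CA1-like, 3678 CA3-like, 339 CA2-like and 18086 cortical-like, and 26811 stayed without a subtype name. The inhibitory class held 2401 Sst-like, 1890 Lamp5-like, 1693 Vip-like, 1260 Pvalb-like and 830 Cck-like nuclei. The tissue was labelled hippocampus, but hippocampal-like nuclei (dentate granule-, CA1-, CA2- and CA3-like) made up between 3.59% and 93% of the excitatory class of a library. The group means of that share were 48.1% in Cgas+/+, 60.1% in P301S Cgas+/+, 30.9% in P301S Cgas+/- and 28.9% in P301S Cgas-/-. Cgas itself did not follow the labels. Its level in microglia-like nuclei averaged 35.4 CPM for Cgas+/+ libraries, 19.1 CPM for Cgas+/-, 27.3 CPM for Cgas-/-, 37.9 CPM for P301S Cgas+/+, 42.6 CPM for P301S Cgas+/- and 51.3 CPM for P301S Cgas-/-, so genotypes below are those of the libraries as labelled. Whether the counted part of Cgas lies inside the deleted part was not tested.

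The members differ by orders of magnitude in the length of DNA they cover (GENCODE vM21, GRCm38). Nrxn3 spans 1612.1 kb of chr12:88722876-90334935 on the plus strand, Nlgn1 906.2 kb of chr3:25426215-26332460 on the minus strand and Lrrtm4 791.3 kb of chr6:80018877-80810143 on the plus strand. Nlgn2 spans 14.7 kb of chr11:69823122-69837784 (minus strand) and Nlgn3 26.8 kb of chrX:101299168-101325963 (plus strand), and Nrxn2 lies at chr19:6418731-6544169 (plus strand). Unspliced RNA was counted, so long genes can collect more UMIs in their introns, and the part of introns in the levels was not tested. In excitatory neuron-like nuclei the level per kb of gene span was 5.71 CPM for Lrrtm4, 4.45 CPM for Nlgn1, 3.06 CPM for Nrxn3, 2.30 CPM for Lrrtm3, 2.16 CPM for Nlgn2, 1.52 CPM for Lrrtm2, 1.5 CPM for Nlgn3, 1.43 CPM for Lrrtm1 and 1.16 CPM for Nrxn2. On that scale the 9 genes lay far closer together than on the CPM scale.

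Of the LRRTM genes, 3 lie inside alpha-catenin genes on the opposite strand. Lrrtm1 (chr6:77242689-77257791, plus strand) lies inside Ctnna2, Lrrtm2 inside Ctnna1 and Lrrtm3 (chr10:63928472-64090277, minus strand) inside Ctnna3. Host exons overlapped Lrrtm2 at 2 places, Lrrtm3 at 1 and Lrrtm1 at 0. Whether the counting used strand is not given in the sources used here, and without strand the reads of a host and its guest cannot be told apart. Host values are therefore given with several of the Lrrtm results.

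Lrrtm4 and Lrrtm3 had the largest ratios of highest to lowest level over the 8 neuron subtypes with enough libraries for tests, so their promoter sequences are shown side by side. RefSeq (GRCm38.p6) lists 2 starts for Lrrtm4, of which the upstream one is shown, and 1 for Lrrtm3. Both sequences are the 250 bases before the start, written 5′ to 3′ on the strand of the gene, at chr6:80018627-80018876 (plus strand) for Lrrtm4 and chr10:64090256-64090505 (minus strand) for Lrrtm3. Capitals mark matches, on either strand, to the letters searched, which were the E-box forms CAGCTG and, as another form, CAGATG, then the TATA-box letters TATAAA and the GC-box letters CCGCCC.
Lrrtm4: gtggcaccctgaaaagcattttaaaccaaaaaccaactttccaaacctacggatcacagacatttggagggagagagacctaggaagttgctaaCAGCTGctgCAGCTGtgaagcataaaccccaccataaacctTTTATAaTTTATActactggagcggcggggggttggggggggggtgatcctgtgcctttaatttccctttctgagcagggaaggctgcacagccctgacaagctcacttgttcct
Lrrtm3: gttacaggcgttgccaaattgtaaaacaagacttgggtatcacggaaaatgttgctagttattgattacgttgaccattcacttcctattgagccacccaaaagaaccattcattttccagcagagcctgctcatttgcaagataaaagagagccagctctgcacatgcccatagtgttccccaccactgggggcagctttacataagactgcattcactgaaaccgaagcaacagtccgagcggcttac
The Lrrtm4 window held 2 copies of CAGCTG and 2 of TATAAA, all in its middle part, and the Lrrtm3 window held 0 matches to the 4 motifs. The window of the other Lrrtm4 start (chr6:80019393-80019642) held 1 CAGCTG and 0 TATAAA. Of 32851 windows of the same length, 13% held CAGCTG, 14.4% held CAGATG, 12.4% held TATAAA and 32.7% held CCGCCC. A match describes letters and names no bound factor.

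The first question was which nuclei carried each gene. Over the 6 main classes, oligodendrocyte progenitor-like nuclei held the highest mean level of 5 of the 9 members (Nrxn2, Nlgn1, Nlgn2, Nlgn3 and Lrrtm3). Among 11610 genes measured in these classes, that class was highest for 7.51%. Inhibitory neuron-like nuclei were highest for 3 members (Nrxn3, Lrrtm2 and Lrrtm4), against 10.9% of genes, and excitatory neuron-like nuclei for Lrrtm1 alone, against 9.91%. These counts describe the members and carry no test.

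Nrxn3, a neurexin with a very long gene, was the most unequal of the pair between neuron types. Its level was 12138 CPM ± 1319 (SD, n = 27) in inhibitory and 4926 CPM ± 650 in excitatory neuron-like nuclei, and the inhibitory level was the higher in 27 of 27 libraries. Oligodendrocyte progenitor-like nuclei followed at 3758 CPM ± 322. Between interneuron subtypes the spread was wider still. Cck-like nuclei reached 24266 CPM ± 1912 (n = 19, range 21527 to 28959), Sst-like nuclei 16121 CPM ± 1280 and Vip-like nuclei 15010 CPM ± 1334. Lamp5-like nuclei held only 2897 CPM ± 354. The Cck-like level was above the Sst-like level in 19 of 19 libraries with both, and Pvalb-like nuclei (9267 CPM ± 1425) were above Lamp5-like nuclei in 24 of 24, by a mean of 1.67 on the log2 scale. Sst-like was above Vip-like in 21 of 26, with a mean difference of 0.10 on the log2 scale, so that pair lay close together.

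Along the hippocampal circuit, Nrxn3 was lowest at the granule cells and highest in CA2. The level was 12198 CPM ± 769 (n = 8) in CA2-like, 9631 CPM ± 1302 (n = 22) in CA3-like, 6201 CPM ± 2037 (n = 26) in CA1-like and 2071 CPM ± 499 (n = 26) in dentate granule-like nuclei. CA2-like was above CA3-like in 8 of 8 libraries and CA3-like above CA1-like in 21 of 21. Cortical-like nuclei (4751 CPM ± 1200) and CA1-like nuclei were less well separated, with CA1 the higher in 17 of 26.

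Nrxn2, the shorter neurexin gene, had a glial maximum. Oligodendrocyte progenitor-like nuclei held 910 CPM ± 151, astrocyte-like nuclei 339 CPM ± 43, inhibitory neuron-like nuclei 262 CPM ± 35.1 and excitatory neuron-like nuclei 145 CPM ± 25.4. The progenitor level was above the astrocyte level in 27 of 27 libraries, by a mean of 1.42 on the log2 scale. Among neurons it was highest in Vip-like nuclei, at 457 CPM ± 74.2, above the Cck-like level in 19 of 19 libraries. Oligodendrocyte-like and excitatory neuron-like nuclei did not separate, with the first higher in 17 of 27.

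**Figure D1:**
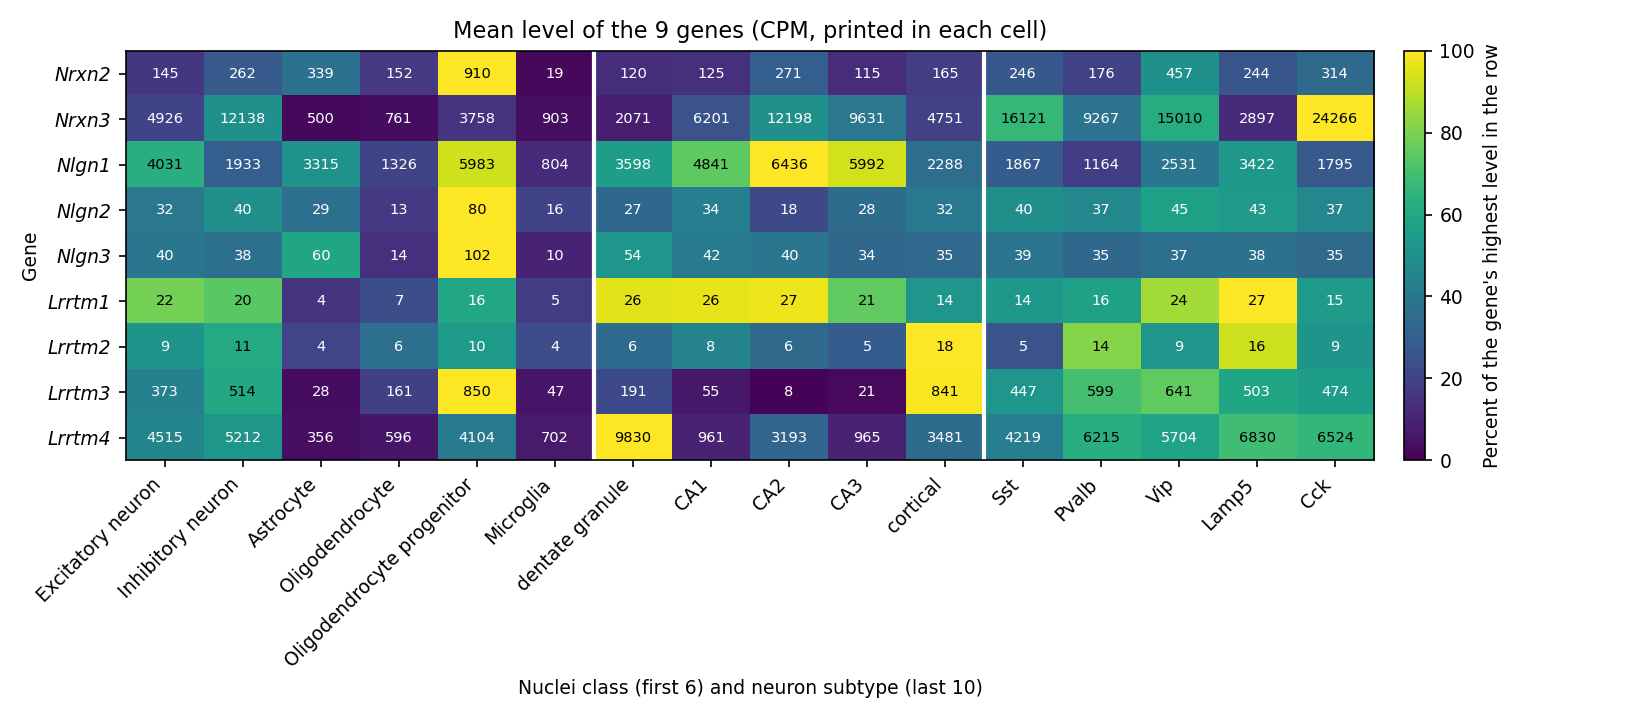
Mean level of the 9 members in the 6 main nuclei classes and 10 neuron subtypes, with the CPM printed in each cell and colour for the percentage of the gene's highest level in its row. Of the 6 classes, oligodendrocyte progenitor-like nuclei are highest for Nrxn2, Nlgn1, Nlgn2, Nlgn3 and Lrrtm3, at 910, 5983, 79.6, 102 and 850 CPM.

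Nlgn1, the neuroligin of excitatory synapses, was highest in oligodendrocyte progenitor-like nuclei at 5983 CPM ± 594, then in excitatory neuron-like nuclei at 4031 CPM ± 641 and astrocyte-like nuclei at 3315 CPM ± 401. Inhibitory neuron-like nuclei held 1933 CPM ± 383. The progenitor level exceeded the excitatory level in 27 of 27 libraries, by a mean of 0.58 on the log2 scale. Within the hippocampus the order was CA2-like (6436 CPM ± 679) and CA3-like (5992 CPM ± 873), then CA1-like (4841 CPM ± 720), then dentate granule-like (3598 CPM ± 518) nuclei, and cortical-like nuclei were lowest at 2288 CPM ± 586. CA2 and CA3 could not be ordered, as CA2 was the higher in 2 of 8 libraries, whereas CA3 was above CA1 in 20 of 21 and CA1 above dentate granule in 25 of 25. Lamp5-like interneurons, at 3422 CPM ± 387, held the highest interneuron level and Pvalb-like interneurons, at 1164 CPM ± 396, the lowest, with Lamp5 above Pvalb in 24 of 24.

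Nlgn2, the neuroligin of inhibitory synapses, was more even than Nlgn1 among neuron subtypes. Its level was 79.6 CPM ± 14.9 in oligodendrocyte progenitor-like, 39.7 CPM ± 6.84 in inhibitory, 31.6 CPM ± 5.33 in excitatory and 29.0 CPM ± 5.49 in astrocyte-like nuclei, and was lower in microglia-like (15.9 CPM ± 6) and oligodendrocyte-like nuclei (13.5 CPM ± 3.27). The progenitor level was above the inhibitory level in 27 of 27 libraries. Interneuron subtypes were not ordered beyond their spread, since Vip-like (45.2 CPM) was above Lamp5-like (42.9 CPM) in only 12 of 26.

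Nlgn3 on the X chromosome also had its maximum in a glial class, at 102 CPM ± 14.8 in oligodendrocyte progenitor-like and 60.2 CPM ± 6.24 in astrocyte-like nuclei, against 40.2 CPM ± 4.61 in excitatory and 37.9 CPM ± 4.78 in inhibitory neuron-like nuclei. Progenitors were above astrocytes in 27 of 27 libraries and astrocytes above excitatory neurons in 27 of 27. Dentate granule-like nuclei led the neurons at 53.6 CPM ± 5.82, above CA1-like nuclei in 25 of 25 libraries.

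Lrrtm4, the LRRTM with glypican ligands, had its highest level among the neuron subtypes in the dentate gyrus. Dentate granule-like nuclei held 9830 CPM ± 784 (n = 26), with a range of 8414 to 11293. Cortical-like nuclei held 3481 CPM ± 1205 and CA2-like nuclei 3193 CPM ± 967, while CA3-like and CA1-like nuclei held 965 CPM ± 204 and 961 CPM ± 840. The granule level exceeded the cortical level in 26 of 26 libraries, by a mean of 1.57 on the log2 scale, and the CA1 level in 25 of 25, by 3.91. CA3 and CA1 did not separate, with CA3 higher in 11 of 21. Interneuron-like nuclei lay between these, from 4219 CPM ± 1591 in Sst-like to 6830 CPM ± 1680 in Lamp5-like nuclei.

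Lrrtm3 had its highest excitatory level in cortical-like nuclei, where Lrrtm4 was second, and both genes were low in CA1 and CA3. Cortical-like nuclei held 841 CPM ± 156, dentate granule-like nuclei 191 CPM ± 36.2, CA1-like nuclei 54.7 CPM ± 51.0, CA3-like nuclei 20.7 CPM ± 8.49 and CA2-like nuclei 7.60 CPM ± 7.90. Cortical was above dentate granule in 26 of 26 libraries and dentate granule above CA1 in 24 of 25. Outside neurons, oligodendrocyte progenitor-like nuclei held 850 CPM ± 61.7 (range 729 to 971) and oligodendrocyte-like nuclei 161 CPM ± 38.1. The host Ctnna3 was ordered in the same way among the excitatory subtypes, at 279 CPM in cortical-, 68.0 CPM in dentate granule-, 26.8 CPM in CA1-, 17 CPM in CA3- and 13.2 CPM in CA2-like nuclei, but it was highest in oligodendrocyte-like nuclei at 1922 CPM and stood at 282 CPM in progenitors. The part of antisense reads in the Lrrtm3 level was not tested.

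Lrrtm1 and Lrrtm2 have short genes and low counts. Lrrtm1 stood at 21.6 CPM ± 4.12 in excitatory and 20.3 CPM ± 3.81 in inhibitory neuron-like nuclei, the first higher in 17 of 27 libraries. CA1-, CA2-, Lamp5- and dentate granule-like nuclei shared nearly the same level (26.4, 26.6, 27.3 and 26.0 CPM), and cortical-like nuclei held 14.2 CPM ± 4.4. Its host Ctnna2 was at 1582 CPM in excitatory, 2600 CPM in inhibitory and 1274 CPM in astrocyte-like nuclei. Lrrtm2 was highest in cortical-like (17.7 CPM ± 4.85), Lamp5-like (16.4 CPM ± 4.5) and Pvalb-like (14.5 CPM ± 7.07) nuclei and lowest in Sst-like nuclei (4.51 CPM ± 2.26). Cortical-like was above CA1-like in 25 of 26 libraries and Lamp5-like above Sst-like in 26 of 26. At the level of classes, Lrrtm2 in inhibitory neuron-like nuclei (10.8 CPM) and in progenitor-like nuclei (9.75 CPM) could not be ordered, with 16 of 27 libraries in favour of the first. Its host Ctnna1 was highest of the main classes in astrocyte-like nuclei, at 140 CPM, where Lrrtm2 had its lowest level of 3.67 CPM.

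Across the 8 neuron subtypes with enough libraries for tests, the highest level over the lowest came to 40.6 for Lrrtm3 (cortical over CA3), 10.2 for Lrrtm4 (dentate granule over CA1), 7.78 for Nrxn3 (Sst over dentate granule) and 5.15 for Nlgn1 (CA3 over Pvalb). The ratio was 3.98 for Nrxn2, 3.93 for Lrrtm2, 1.91 for Lrrtm1, 1.68 for Nlgn2 and 1.56 for Nlgn3. Of all genes measured in these subtypes, 92.3% had a smaller ratio than Lrrtm3 and 81.9% a smaller ratio than Lrrtm4, but only 28.4% a smaller ratio than Nlgn3.

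**Figure D2:**
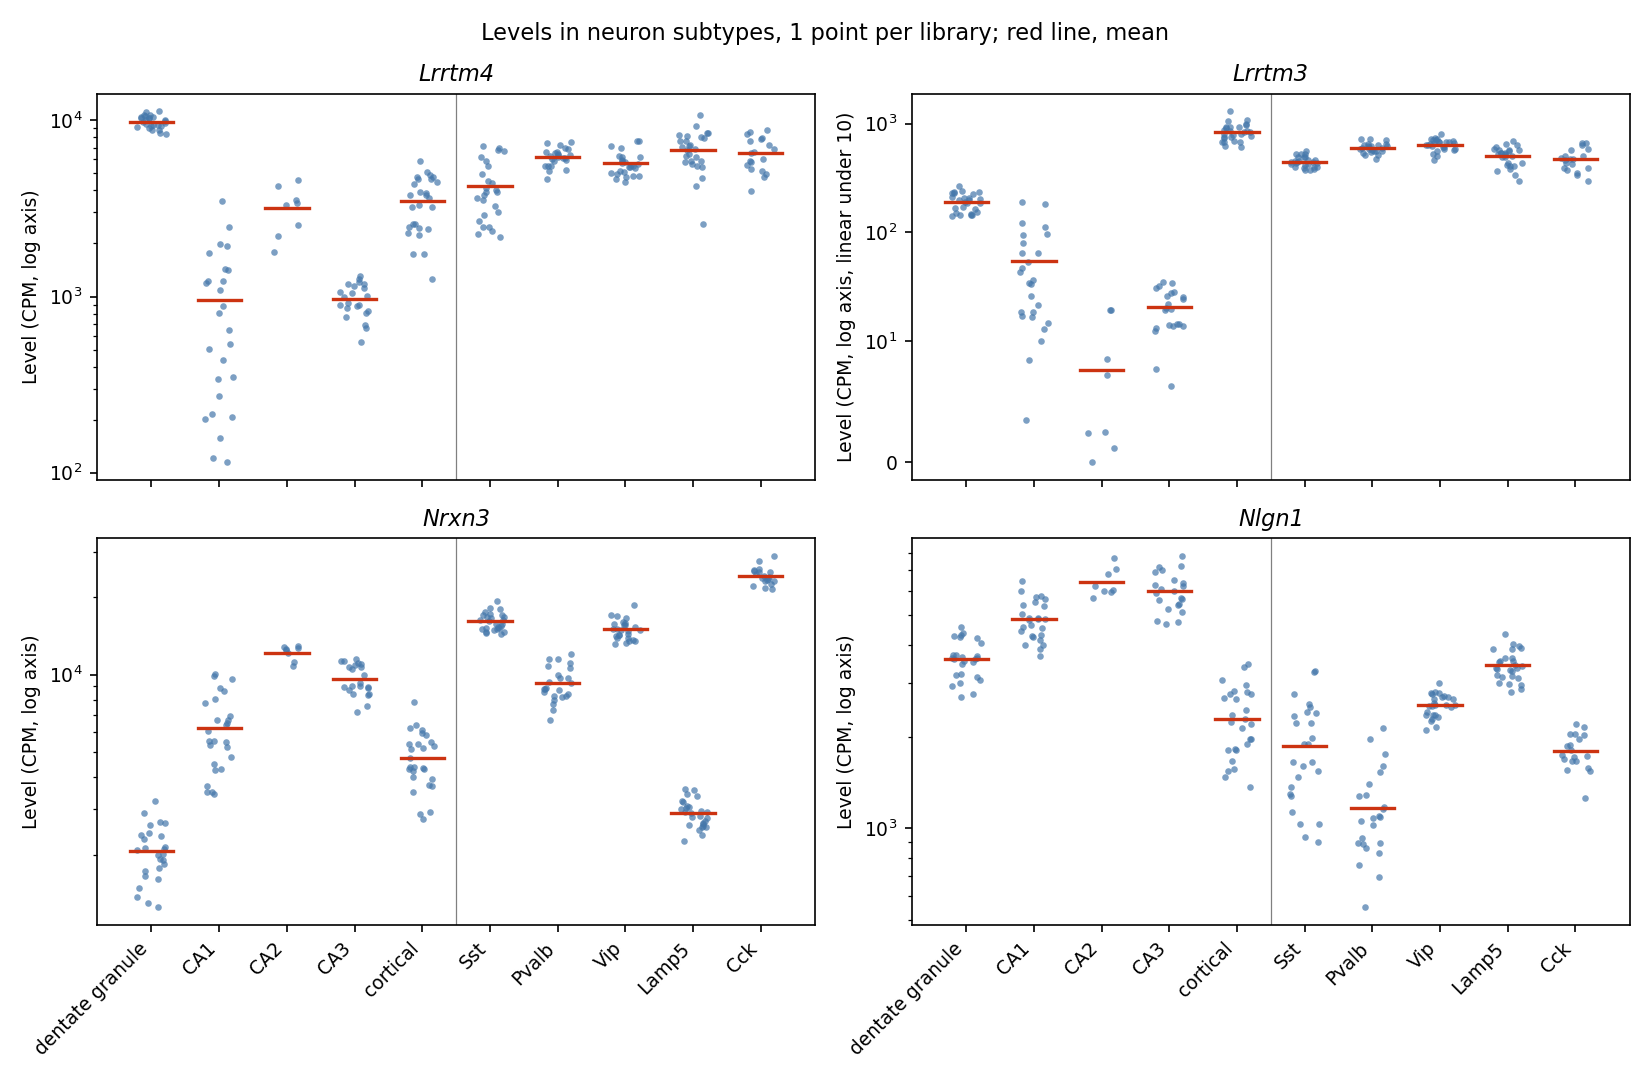
Levels of Lrrtm4, Lrrtm3, Nrxn3 and Nlgn1 in the neuron subtypes, as CPM on log axes (linear under 10 for Lrrtm3), with 1 point per library and a red line at the mean. Lrrtm4 peaks in dentate granule-like nuclei (9830 CPM), Lrrtm3 in cortical-like nuclei (841 CPM) and Nrxn3 in Cck-like nuclei (24266 CPM), while Nlgn1 is high in both CA2-like (6436 CPM) and CA3-like nuclei (5992 CPM), which could not be ordered.

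Free RNA can place neuronal UMIs in glial barcodes, so each glial level was set against 8 neuronal genes (Slc17a7, Snap25, Syt1, Rbfox3, Grin1, Grin2a, Camk2a and Nrgn) as a percentage of the excitatory level in the same library. In microglia-like nuclei the highest of these genes averaged 35.3% of the excitatory level. There Nrxn2, Nrxn3, Nlgn1, Lrrtm3 and Lrrtm4 were above it in 0 of 27 libraries, so those microglial values were not separated from background. Against the median of the 8 genes, which averaged 15.9%, Nlgn1 was above in 21 libraries, Nrxn3 in 20, Lrrtm4 in 13, and Nrxn2 and Lrrtm3 in 6 each. In the same nuclei Nlgn2 was above the highest of the 8 genes in 20 libraries, Lrrtm2 in 19, Lrrtm1 in 5 and Nlgn3 in 4. The Lrrtm2 percentage was widely scattered, at 49.1% ± 39.5 with a range of 0% to 161%. Counts of Lrrtm1, Lrrtm2 and Nlgn3 were too low there for the tests below. In astrocyte-like nuclei, Nrxn2, Nlgn1, Nlgn2 and Nlgn3 were above the highest of the 8 genes in 27 of 27 libraries, Lrrtm2 in 26, Lrrtm1 in 16, Lrrtm3 in 1, and Nrxn3 and Lrrtm4 in 0. In oligodendrocyte-like nuclei Nrxn2 passed it in 27, Lrrtm2 in 26, Nlgn2 in 25, Lrrtm3 in 22, Nlgn1 and Nlgn3 in 21 and Lrrtm1 in 16, but Nrxn3 and Lrrtm4 in 0. In oligodendrocyte progenitor-like nuclei all 9 members passed it in 27 of 27.

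Subtypes were themselves mixtures. The excitatory and inhibitory nuclei had been clustered without the members or the partner genes described below, so the subclusters give member levels that did not define them. In CA1-like nuclei, subcluster 2 (led by 4921539H07Rik, 5567 nuclei) held 356 CPM ± 199 of Lrrtm4, and subcluster 6 (led by B230110G15Rik, 4087 nuclei) held 167 CPM ± 49. Subcluster 16, led by Pde11a with 2056 nuclei, held 3448 CPM ± 887 (n = 17). Lrrtm3 moved alike, at 12.2 and 11.9 CPM in subclusters 2 and 6 and 211 CPM ± 90 in subcluster 16, and Nrxn3 went the other way, at 6929 and 7190 CPM against 2468 CPM ± 1182. Nlgn1 stayed between 4753 and 5842 CPM in all the CA1-like subclusters. Per library, subcluster 16 made up between 0% and 43% of the CA1-like nuclei. Other CA1-like subclusters varied too, with subcluster 25 at up to 25.3% in Cgas+/+ and subcluster 32 at up to 22.6% in P301S Cgas-/-. CA1 Lrrtm4 ranged from 115 to 3471 CPM over libraries, and the part of these shares in that range was not tested.

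Dentate granule-like nuclei split on Nrxn3 and hardly on Lrrtm4. Subcluster 0 (led by Gm30551, 8260 nuclei) held 4008 CPM ± 559 of Nrxn3, against 1252 CPM ± 224 in subcluster 1 (led by Glis3, 7060 nuclei) and 1076 CPM ± 278 in subcluster 4 (led by Dsp, 4558 nuclei). Lrrtm4 lay between 9032 and 10830 CPM in the same subclusters. Cortical-like subclusters differed in 4 members at once. The subcluster led by Rorb (number 8, 3047 nuclei) had the highest Nlgn1, at 4600 CPM ± 543, and the lowest Lrrtm3, at 221 CPM ± 30.6. Lrrtm4 ran from 968 CPM ± 446 in the subcluster led by Ctgf (number 20) to 7357 CPM ± 1112 in that led by Wdr95 (number 7). Nrxn3 ran from 810 CPM ± 378 in the subcluster led by Aox3 (number 27) to 8860 CPM ± 934 in that led by Syt6 (number 10).

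Sst-like interneurons held the widest split of Nlgn1. The subcluster led by Itgad (number 19, 339 nuclei, n = 6) had 4820 CPM ± 586, that led by Pdyn (number 21) 1783 CPM ± 100, that led by Dmrt2 (number 1, 881 nuclei) 1143 CPM ± 256 and that led by Gm28928 (number 8, 574 nuclei) 395 CPM ± 165. Lrrtm4 was 5762, 1708, 1433 and 8071 CPM in the same order. Nrxn3 was nearly flat over these 4, between 16020 and 17300 CPM.

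**Figure D3:**
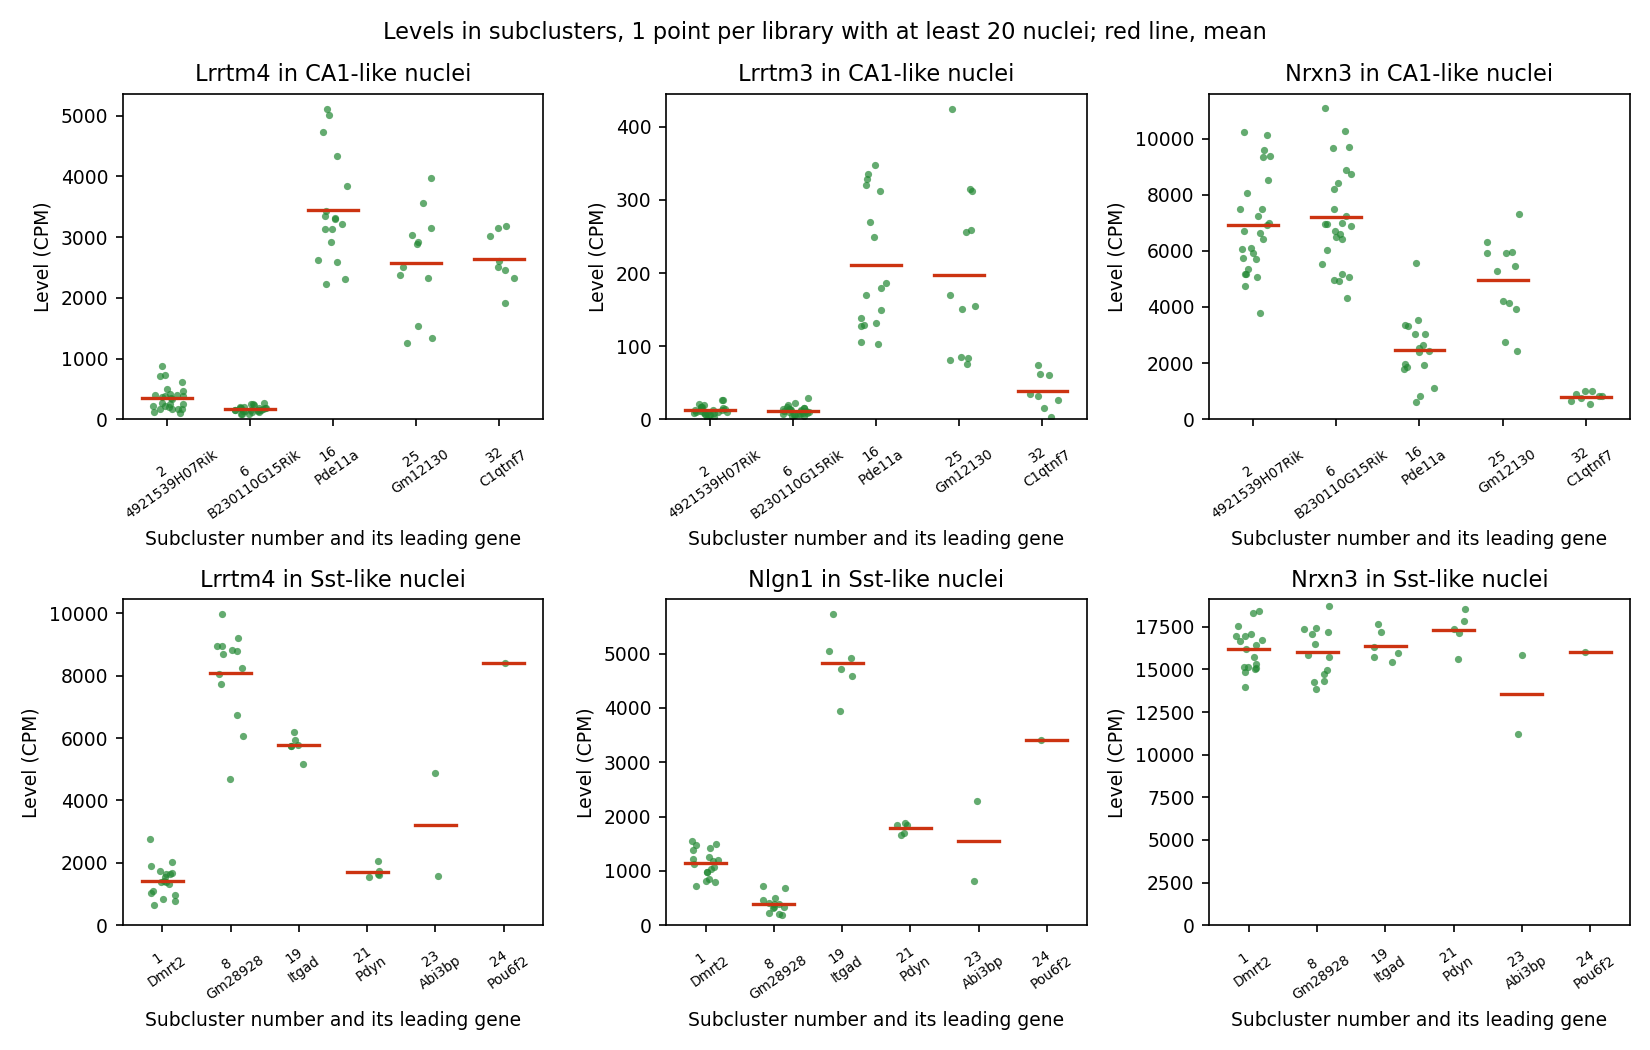
Levels as CPM in the subclusters of CA1-like nuclei (Lrrtm4, Lrrtm3 and Nrxn3) and Sst-like nuclei (Lrrtm4, Nlgn1 and Nrxn3), with 1 point per library that had at least 20 nuclei and a red line at the mean. Nlgn1 in Sst-like nuclei runs from 395 CPM in subcluster 8 to 4820 CPM in subcluster 19, and Lrrtm4 in CA1-like nuclei from 167 CPM in subcluster 6 to 3448 CPM in subcluster 16.

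For each member, the genes with the most similar pattern over 23 classes and subtypes were taken from 14027 genes, by Pearson correlation of mean log2(CPM + 1). The points share libraries and depth, so the values only describe. Lrrtm1 had the closest neighbours, Trim46 (0.958), Ppfia3 (0.956) and Elfn2 (0.952). Nrxn2 was closest to Apc2 (0.932), Ctnna2 (0.911) and Mir9-3hg (0.909), and Nlgn3 to Mir9-3hg (0.925), Gm35040 (0.917) and Cers1 (0.916). Nrxn3 lay nearest to Csrnp3 (0.917), Slc44a5 (0.912) and the sodium channel gene Scn1a (0.893). Nlgn1 lay nearest to Galnt16 (0.902), Acp1 (0.901) and Ncan (0.895), the gene of the proteoglycan neurocan. Lrrtm3 resembled the contactin gene Cntn6 (0.913), Dpp10 (0.892) and Sgcz (0.88), and Lrrtm4 resembled Mgat5b (0.915), Tenm1 (0.91) and Vstm2a (0.901). Likeness was weaker for Nlgn2, at 0.832 to Obsl1, 0.831 to Lrp3 and 0.83 to Zfp354c, and for Lrrtm2, at 0.853 to Dffa, 0.843 to Zfp72 and 0.833 to Gm9962.

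The next question was whether the tau transgene or the Cgas genotype went with a change of any member. UMIs were summed per mouse, and 14 classes and subtypes were tested with the quasi-likelihood test of edgeR, with Benjamini-Hochberg adjustment over all genes of each. The 9 members gave 119 tests per contrast on 23 mice, since Lrrtm2 was too low for the test in CA3-, Sst- and Vip-like nuclei, Lrrtm1 in Pvalb-like nuclei, and Lrrtm1, Lrrtm2 and Nlgn3 in microglia-like nuclei. No member passed an adjusted p of 0.05 in any genotype contrast. The median absolute log2 difference of the members was 0.118 in the tau contrast (P301S Cgas+/+ less Cgas+/+), 0.126 in the deletion contrast (P301S Cgas-/- less P301S Cgas+/+) and 0.149 in the heterozygous contrast (P301S Cgas+/- less P301S Cgas+/+), with a median standard error near 0.16.

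In the tau contrast edgeR called 0 of 119 member tests and DESeq2 0, where edgeR called 0.0101% and DESeq2 0.317% of the tests over all genes. At an unadjusted p under 0.05 there were 2, both lower with the transgene, against 5.24% over all genes. Lrrtm2 in astrocyte-like nuclei had a log2 difference of -0.79 (SE 0.31, adjusted p = 0.33, edgeR). The group means were 5.39 CPM for Cgas+/+ and 3.05 CPM for P301S Cgas+/+. The host Ctnna1 was at 0.29 (SE 0.13, adjusted p = 0.37) there. Lrrtm3 in oligodendrocyte-like nuclei had a log2 difference of -0.32 (SE 0.14, adjusted p = 0.74, edgeR), with its host Ctnna3 at -0.15 (SE 0.12, adjusted p = 0.86). This level differed by the software version named in the file headers, as described with sex below. Among libraries with header 3.0.2, the 2 of P301S Cgas+/+ had 179 and 180 CPM and the 2 of Cgas+/+ 219 and 225 CPM. Among those with header 3.1.0, P301S Cgas+/+ ran from 120 to 132 CPM (n = 4) and Cgas+/+ from 138 to 189 CPM (n = 3). With the version as a block the log2 difference was -0.31 (SE 0.11, adjusted p = 0.61, edgeR). The result had been picked by a small p in these same libraries, and both groups held a similar mix of versions. Neither the split nor the block can therefore serve as a test of the version.

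The leading levels by class were set side by side for the 4 groups. Lrrtm4 in dentate granule-like nuclei averaged 9273 CPM ± 571 in Cgas+/+, 10070 CPM ± 725 in P301S Cgas+/+, 9918 CPM ± 863 in P301S Cgas+/- and 10405 CPM ± 634 in P301S Cgas-/-. The 95% interval of its log2 difference ran from -0.06 to 0.33 in the tau contrast and from -0.19 to 0.20 in the deletion contrast. Nrxn3 in inhibitory neuron-like nuclei averaged 12104, 12347, 11683 and 12010 CPM in the same 4 groups, with intervals of -0.22 to 0.33 for tau and -0.35 to 0.17 for deletion. Nlgn1 in oligodendrocyte progenitor-like nuclei averaged 6307, 5817, 5825 and 5774 CPM, with intervals of -0.30 to 0.12 and -0.25 to 0.15.

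In the deletion contrast edgeR called 0 of 119 member tests, where 0.0148% of the tests over all genes were called, and DESeq2 called 1, Nlgn1 in Sst-like nuclei, against 0.171% over all genes. At an unadjusted p under 0.05 there were 10 (2 higher and 8 lower in P301S Cgas-/-), against 5.85% over all genes. For Nlgn1 in Sst-like nuclei, the libraries of P301S Cgas+/+ stood at 1888, 1365, 3270, 3253 and 2212 CPM. Those of P301S Cgas-/- ran from 934 through a median of 1213 to 1984 CPM, and the groups overlapped. The log2 difference was -0.91 (SE 0.27, adjusted p = 0.17, edgeR), and the unadjusted exact two-sided permutation p over mice was 0.022, without sex in the test. The result had been picked by a small edgeR p in these same libraries, so the permutation p is no separate evidence.

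The subcluster shares of Sst-like nuclei also differed between these groups. The Itgad-led subcluster, rich in Nlgn1, made up 24.0% of the Sst-like nuclei in P301S Cgas+/+, 4.93% in P301S Cgas-/-, 5.88% in P301S Cgas+/- and 20.8% in Cgas+/+. The Nlgn1 level of each subcluster, pooled over all libraries, was then weighted by its share of the Sst-like UMIs of each library. The group means of these weighted values were 2187 CPM for P301S Cgas+/+ and 1411 CPM for P301S Cgas-/-, beside measured means of 2398 and 1330 CPM. For Lrrtm4 the weighted values were 5027 and 3484 CPM and the measured means 5015 and 3210 CPM. The part of the shares in these differences was not tested.

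Lrrtm4 in Sst-like nuclei had a log2 difference of -0.70 (SE 0.27, adjusted p = 0.33, edgeR), and Nlgn1 one of -0.71 (SE 0.26, adjusted p = 0.40) in Pvalb-like nuclei and -0.38 (SE 0.15, adjusted p = 0.76) over the whole inhibitory class. In Pvalb-like nuclei too the subcluster shares differed between the groups. Subcluster 13, led by Ednra and with 1983 CPM of Nlgn1 against 502 CPM in subcluster 3, made up 44.3% of the nuclei in P301S Cgas+/+ and 20.9% in P301S Cgas-/-. The same weighting by UMI shares gave 1362 and 895 CPM, beside measured means of 1415 and 872 CPM. The part of the shares in this difference was not tested.

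Lrrtm1 in excitatory neuron-like nuclei ran from 17.8 through a median of 24.8 to 25.5 CPM in P301S Cgas+/+ and from 15.9 through 17.2 to 19.8 CPM in P301S Cgas-/-. These ranges overlapped only through the lowest library of P301S Cgas+/+. The log2 difference was -0.50 (SE 0.15, adjusted p = 0.21, edgeR), and the host Ctnna2 was at -0.01 (SE 0.11, adjusted p = 0.98). The unadjusted exact permutation p was 0.0065, again for a result picked by a small edgeR p in these same libraries. The hippocampal-like share of the class was also lower in P301S Cgas-/-, and Lrrtm1 stood at 25.4 CPM in hippocampal-like and 14.2 CPM in cortical-like nuclei. The part of that share in the difference was not tested. In hippocampal-like nuclei alone the log2 difference was -0.16 (SE 0.15, adjusted p = 0.9999), and in cortical-like nuclei -0.11 (SE 0.20, adjusted p = 0.9995, edgeR).

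Lrrtm3 in the excitatory class had a log2 difference of 0.56 (SE 0.24, adjusted p = 0.29, edgeR), with means of 308 CPM in P301S Cgas+/+ and 466 CPM in P301S Cgas-/-. The host Ctnna3 was at 0.36 (SE 0.27, adjusted p = 0.58) in the same nuclei. In hippocampal-like excitatory nuclei alone the difference was -0.0035, and in cortical-like nuclei -0.36 (SE 0.15, adjusted p = 0.71). The hippocampal-like share, given above, was lower in P301S Cgas-/- than in P301S Cgas+/+, and Lrrtm3 was the member with the largest cortical excess. Nrxn3 in cortical-like nuclei had a log2 difference of 0.44 (SE 0.16, adjusted p = 0.70, edgeR). The measured means were 3978 and 5465 CPM, and the means computed from the subcluster shares of UMIs were 4165 and 5205 CPM. The part of those shares in the difference was not tested.

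In the heterozygous contrast edgeR again called 0 of 119 member tests, against 0.00336% over all genes, and DESeq2 called 2, Nlgn1 and Lrrtm4 in Sst-like nuclei, against 0.25% over all genes. At an unadjusted p under 0.05 there were 15 (4 higher and 11 lower in P301S Cgas+/-), against 6% over all genes. The control libraries are those of the deletion contrast, so the values of both contrasts are not independent. Nlgn1 in Sst-like nuclei had a log2 difference of -0.86 (SE 0.27, adjusted p = 0.24), Lrrtm4 there -0.83 (SE 0.27, adjusted p = 0.25) and Nrxn3 in cortical-like nuclei 0.50 (SE 0.16, adjusted p = 0.24). The remaining ones included Nrxn3 in Pvalb-like nuclei (-0.38), Nrxn2 in dentate granule-like nuclei (-0.35), Lrrtm4 in the inhibitory class (-0.30) and Nlgn2 in oligodendrocyte-like nuclei (-0.36). Weighting by UMI shares of subclusters gave, for P301S Cgas+/+ and P301S Cgas+/-, 2187 and 1555 CPM of Nlgn1 in Sst-like nuclei (measured 2398 and 1382). It gave 5027 and 3295 CPM of Lrrtm4 there (measured 5015 and 2994). For Nrxn3 in cortical-like nuclei it gave 4165 and 5612 CPM (measured 3978 and 5721). The part of the shares was not tested.

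**Figure D4:**
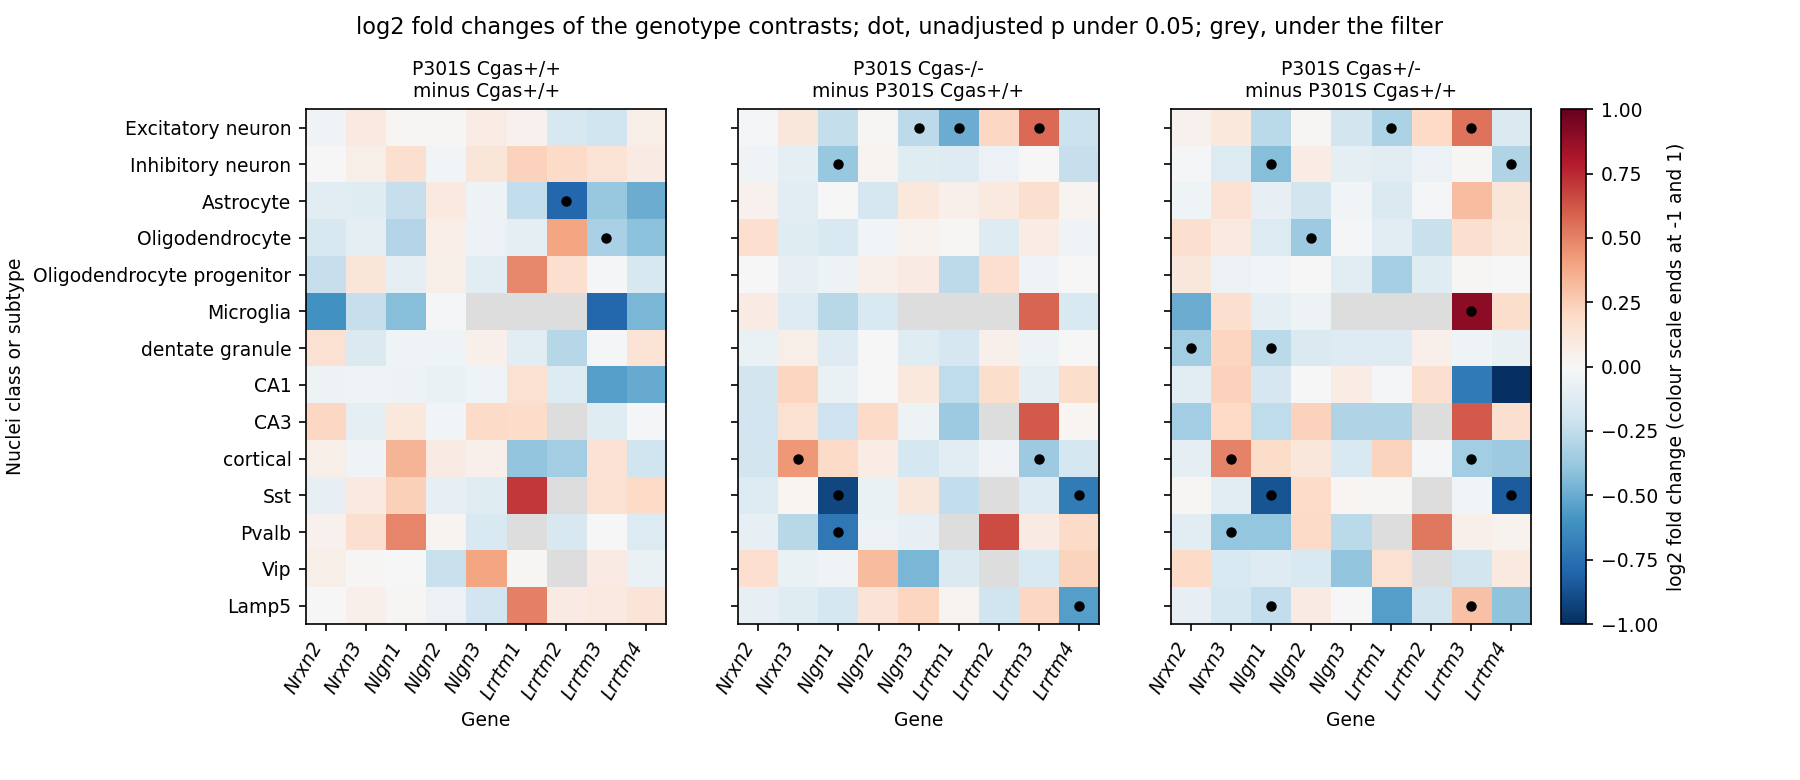
Log2 fold changes of the members (columns) in the 14 classes and subtypes (rows) for the tau, deletion and heterozygous contrasts, from edgeR, with a dot at an unadjusted p under 0.05 and grey where a gene was too low to test. No member passed an adjusted p of 0.05, and the dots number 2, 10 and 15, among them Nlgn1 in Sst-like nuclei at -0.91 (deletion) and -0.86 (heterozygous).

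The interaction of the transgene with loss of Cgas was fitted on all 27 libraries and rests on 2 Cgas-/- mice. The 2 Cgas-/- and 2 Cgas+/- libraries all had header 3.0.2 (the software version in the file header), whereas 3 of 5 Cgas+/+ libraries and 4 of 6 in each P301S group had header 3.1.0, so header version and genotype are partly mixed in this fit and in the contrasts without the transgene. It gave 0 calls in 122 member tests (edgeR), against 0.0269% over all genes, and 19 at an unadjusted p under 0.05 (6 above and 13 below 0), against 6.32% over all genes. DESeq2 called 1 interaction, Lrrtm3 in the excitatory class, against 0.709% over all genes. That gene had the interaction with the smallest p, 1.55 on the log2 scale (SE 0.44, adjusted p = 0.077, edgeR), and with the header version as a block it was 1.47 (SE 0.45, adjusted p = 0.082). The host Ctnna3 had an interaction of 1.15 (SE 0.50, adjusted p = 0.22). The mean level of Lrrtm3 in the excitatory class was 353 CPM in Cgas+/+ and 180 CPM in Cgas-/-. The hippocampal-like share of the excitatory nuclei averaged 86.2% in Cgas-/-. Within cortical-like nuclei Lrrtm3 averaged 841.5 CPM in Cgas+/+, 1022 CPM in Cgas-/-, 942.1 CPM in P301S Cgas+/+ and 748.4 CPM in P301S Cgas-/-. Its means in dentate granule-like nuclei were 198.1, 156.6, 195.2 and 201.1 CPM in the same order. The part of the hippocampal-like share in the interaction was not tested. Without the transgene, Cgas-/- against Cgas+/+ gave 0 calls (0.000612% over all genes) and 6 at an unadjusted p under 0.05 (3.4% over all genes). Cgas+/- against Cgas+/+ gave 0 calls (0.000612%) and 4 at an unadjusted p under 0.05 (2.2%).

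Exact two-sided permutation tests over mice were run on 126 member values per contrast, 378 in all, on log2(CPM + 1). An unadjusted p under 0.05 was reached by 4 values for tau, 11 for deletion and 11 for heterozygosity, with a lowest p of 0.0043 in the deletion contrast, and the share over all genes was not computed for this test. The smallest p that 6 against 6 mice allow is 0.002165.

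By sex, edgeR called 2 of 119 member tests (1.68%), a smaller share than the 2.51% called over all genes, so the members did not stand out by their number of calls. Both calls were Lrrtm3. The 12 libraries whose file headers name software version 3.0.2 were all of males, and the 15 with version 3.1.0 held all 11 females and 4 males, so sex was set beside the header version. What the header version stands for in the making of the libraries was not tested.

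In dentate granule-like nuclei Lrrtm3 was higher in females. Females ran from 198 through a median of 228 to 268 CPM (n = 11) and males from 145 through 167 to 206 CPM (n = 11), so the lowest females met the highest males. The log2 difference was 0.41 (SE 0.082, adjusted p = 0.011, edgeR), where 1.33% of the genes tested in these nuclei were called higher in females. The 4 males with header 3.1.0 averaged 166 CPM ± 28.4 and the 7 with header 3.0.2 averaged 175 CPM ± 21.6, beside 225 CPM ± 20.3 in females. With the header version as a block the log2 difference was 0.40 (SE 0.11), and its adjusted p was 0.18 (edgeR), where calls over all genes, classes and subtypes fell to 0.0974%. The host Ctnna3 was at -0.29 (SE 0.20, adjusted p = 0.50) without the block and 0.36 (SE 0.18) with it.

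In oligodendrocyte-like nuclei Lrrtm3 was lower in females, which ran from 108 through 126 to 189 CPM (n = 11), against 132 through 179 to 255 CPM in males (n = 12). The log2 difference was -0.40 (SE 0.095, adjusted p = 0.027, edgeR), where 1.25% of the genes tested were called lower in females. Here the males divided by header. The 8 with header 3.0.2 averaged 204 CPM ± 27.6 and the 4 with header 3.1.0 averaged 142 CPM ± 7.21, next to 134 CPM ± 22.7 in females. With the header as a block the log2 difference was -0.09 (adjusted p = 0.81). The host Ctnna3 was at -0.0057 (SE 0.085, adjusted p = 0.99). Nlgn3, the X-linked member, passed in 0 classes or subtypes. Nlgn2 was at 0.39 (SE 0.12, adjusted p = 0.090) in oligodendrocyte-like and 0.29 (SE 0.098, adjusted p = 0.13) in astrocyte-like nuclei, on the log2 scale of female over male. With the header as a block these Nlgn2 values were 0.37 (SE 0.18) and 0.15 (SE 0.13).

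**Figure D5:**
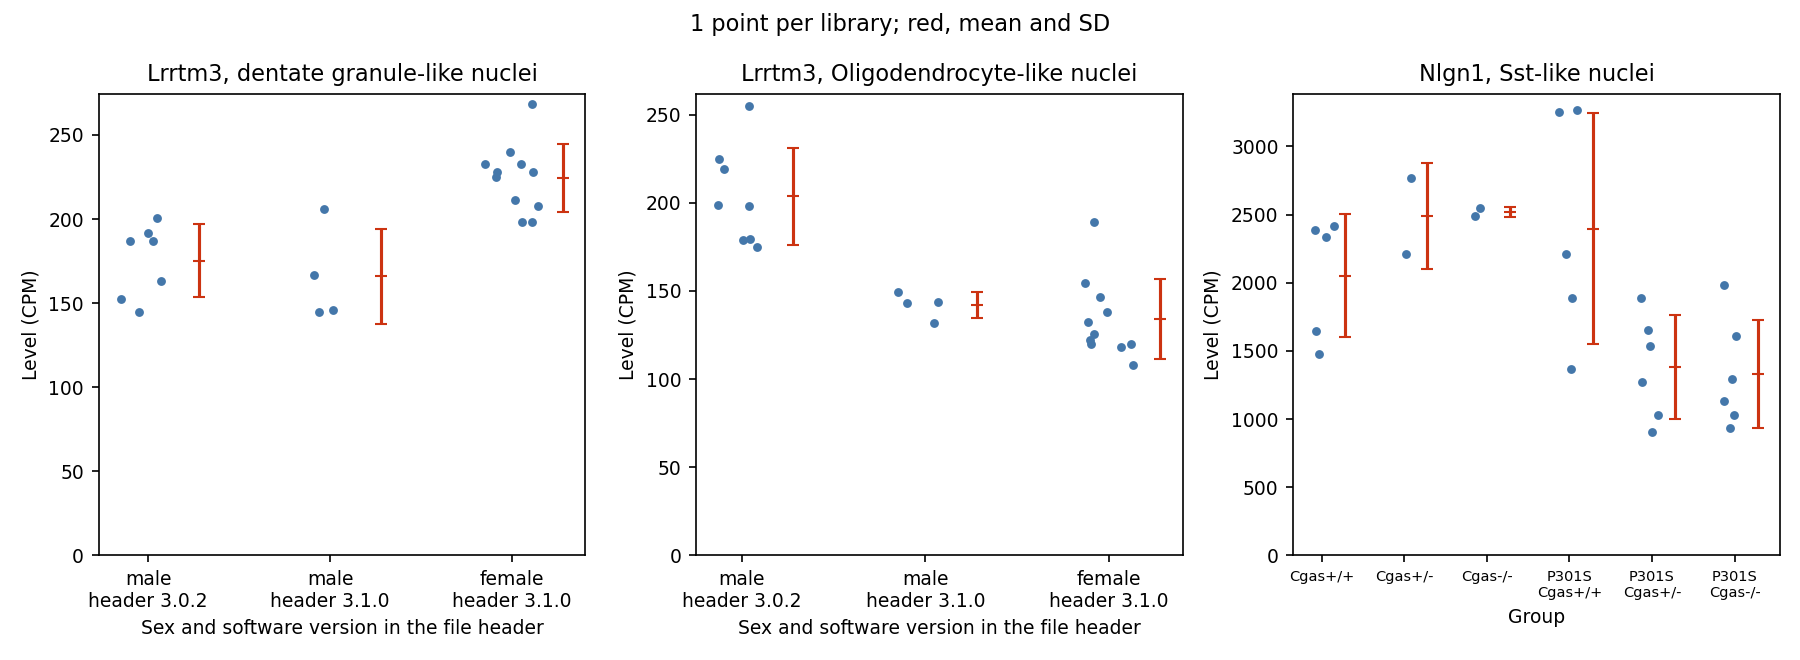
Levels per library, as CPM, of Lrrtm3 by sex and header version in dentate granule- and oligodendrocyte-like nuclei and of Nlgn1 by group in Sst-like nuclei, with the mean and SD in red. In dentate granule-like nuclei the males of both header versions average 175 and 166 CPM and the females 225 CPM, and in oligodendrocyte-like nuclei the males with header 3.1.0 (142 CPM) lie beside the females (134 CPM).

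Around the members, 56 genes of other synaptic organisers and partners were examined: presynaptic receptor phosphatases, secreted bridges, neuroligin inhibitors, scaffolds and splicing factors. In the 14 classes and subtypes they gave 645 tests per contrast, with 0 calls by edgeR for tau, deletion or heterozygosity. At an unadjusted p under 0.05 the tau contrast had 11 higher and 30 lower (6.36% of the tests, against 5.24% over all genes), the deletion contrast 12 higher and 49 lower (9.46%, against 5.85%) and the heterozygous contrast 11 higher and 44 lower (8.53%, against 6%). In excitatory neuron-like nuclei the smallest p of the deletion contrast belonged to Mdga1, which encodes an inhibitor of neuroligin binding, at -0.77 (SE 0.23, adjusted p = 0.21, edgeR), and to Cbln2, a secreted bridge between neurexins and postsynaptic receptors, at 1.11 (SE 0.34, adjusted p = 0.21). The heterozygous contrast had the same pair in front, at -0.96 and 1.21 (adjusted p = 0.20 for both, edgeR). The hippocampal-like share of the class was lower in both groups, as given above. In hippocampal-like nuclei alone Mdga1 was at 0.13 (SE 0.20) in the deletion and -0.21 (SE 0.20) in the heterozygous contrast, and Cbln2 was too low to test. In cortical-like nuclei Mdga1 was at -0.57 (SE 0.45) in the deletion and -0.99 (SE 0.45) in the heterozygous contrast. Cbln2 was there at -0.41 (SE 0.33) and -0.65 (SE 0.33). In inhibitory neuron-like nuclei Cbln4, another secreted bridge, came first in both, at -1.43 (SE 0.32, adjusted p = 0.30) and -1.08 (SE 0.31, adjusted p = 0.45). It was followed by Ptprf, a receptor phosphatase, at -0.48 in the deletion contrast, and by the splicing factor gene Khdrbs2 at -0.76 in the heterozygous contrast. The tau contrast was led by Ptprf (-0.32) and Lrrc4 (0.25) in excitatory and by Gpc4 (-0.39), a glypican, and Cbln4 (0.46) in inhibitory neuron-like nuclei.

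The interaction gave 0 calls among 664 partner tests (29 above and 47 below 0 at an unadjusted p under 0.05, or 11.4%, against 6.32% over all genes), led in the excitatory class by Mdga1 at -1.55 (adjusted p = 0.063, edgeR) and the neurexophilin gene Nxph2 at 2.78 (adjusted p = 0.069). In hippocampal-like nuclei alone the interaction of Mdga1 was -0.02 (SE 0.34), and in cortical-like nuclei -0.23 (SE 0.94). Deletion without the transgene gave 0 calls (13 higher and 12 lower at that p, 3.77% against 3.4%) and heterozygosity without it 0 (3 higher and 12 lower, 2.26% against 2.2%). By sex, 17 of 645 partner tests were called (2.64%, against 2.51% over all genes), 10 higher and 7 lower in females. Dlg4, the gene of the postsynaptic scaffold PSD-95, was higher in excitatory neuron-like nuclei of females by 0.41 on the log2 scale (SE 0.068, adjusted p = 0.0038, edgeR), as was Lhfpl4, which partners Nlgn2 at inhibitory synapses, by 0.28. Flrt3, a latrophilin ligand, was lower in cortical-like nuclei of females, at -0.69 (SE 0.13, adjusted p = 0.0093). With the header version as a block 0 of the 17 passed the adjusted threshold (0.0974% over all genes). All 17 kept their direction, 14 had an unadjusted p under 0.05 and 7 were at least as large as before. The median size of the log2 difference went from 0.41 to 0.39. The 17 had been picked as calls in these same libraries, so the kept directions and small p cannot serve as a test. Dlg4 in excitatory neuron-like nuclei stood at 0.45 (SE 0.098, adjusted p = 0.13, edgeR), Lhfpl4 at 0.12 and Flrt3 in cortical-like nuclei at -0.42.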

How the data were processed

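Single-nucleus libraries were made by the authors with 10x Chromium 3' v3 chemistry from the hippocampi of 27 mice. The deposited values are UMI counts per gene and barcode, not normalized, which the authors made with Cell Ranger on the mm10 genome, introns included. The submitters' processing notes name Cell Ranger 3.1.0 and Seurat 3.0, while 12 file headers name version 3.0.2.

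The study's own filter was applied (200 to 4000 genes per barcode, mitochondrial UMIs up to 5%), and it left out 20027 barcodes above 4000 genes. The barcodes with the highest Scrublet scores (scanpy 1.11.5) were removed as doublets, 16429 in all, at a rate of 0.8% per 1000 nuclei. The others were clustered (2000 variable genes without the members and their partners, 30 components, 15 neighbours, Leiden resolution 1.0) and named by at least 3 markers. The rule that names neuron subtypes was revised after marker levels had been seen and before groups were compared.

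UMIs were summed per mouse and class where a library had at least 20 nuclei, and a class was tested with at least 3 libraries in each of 4 groups (Cgas+/+ and the 3 P301S groups, 23 mice). The study tested nuclei with MAST, whereas here the mouse is the replicate. Sums were fitted in R 4.3.3 with edgeR 4.0.16, by its robust quasi-likelihood F-test after filterByExpr and TMM, with sex in the design, with Benjamini-Hochberg adjustment over all genes of a class and a threshold of 0.05. DESeq2 1.42.0 was an alternative. Single values had exact permutation tests on log2(CPM + 1). The statistics were tested on simulated data. All members were named, and of the partner list those with the smallest p. Members and gene lists were chosen with earlier results of these data known. Counting error of a UMI total is covered by no interval beyond the spread over mice. Motifs were searched in RefSeq promoter windows.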

Additional observations from a re-analysis of the deposited data

Results flagged for a closer look

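In 3 of 84 groups of 4 to 10 libraries, the highest or lowest library stood apart from the others by more than the 95% critical value of Dixon's gap test, which chance does in about 1 in 20 groups. Lrrtm1 in excitatory neuron-like nuclei was 17.85 CPM in replicate 1 of P301S Cgas+/+, a male, where the nearest library had 23.05 CPM. That replicate also had the lowest hippocampal-like share of its group, 13.7% of the excitatory class against a group mean of 60.1%. Lrrtm4 in inhibitory neuron-like nuclei was 5486 CPM in replicate 6 of P301S Cgas+/-, a female, where the nearest had 4722 CPM. Nrxn3 in Pvalb-like nuclei was 11087 CPM in replicate 5 of P301S Cgas-/-, a male, where the nearest had 8450 CPM. The sources of these gaps were not tested.

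Nrxn3 was also found in a class outside the comparisons. Ependymal-like nuclei, of the ciliated lining of the ventricles, held 3378 CPM ± 845 (SD, n = 14 libraries), which was 69.7% of the excitatory level in the same libraries. It was above the highest of the 8 neuronal background genes in 13 of 14 libraries.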

How the results depend on the processing

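The count of called members stayed at 0 in the tau contrast under every alternative run. With DESeq2 it was 1 in the deletion contrast (Nlgn1 in Sst-like nuclei, -0.91), 2 in the heterozygous contrast (Nlgn1 and Lrrtm4 in Sst-like nuclei) and 1 in the fit of all 27 mice (Lrrtm3 in the excitatory class, interaction). Without the filter on low counts it was 1 in the deletion contrast (Nlgn1 in Pvalb-like nuclei, -0.74) and 1 in the heterozygous contrast (Lrrtm3 in microglia-like nuclei, 0.87), where 0.107% and 0.219% of the tests over all genes were called. With the header version as a block, an alternative chosen after seeing the data, the count for sex went from 2 to 0, while calls over all genes went from 2.51% to 0.0974%. Lrrtm3 in the excitatory class turned from 0.56 to -0.0035 in the deletion contrast when hippocampal-like nuclei alone were used. The mean log2 ratio of Nlgn1 in progenitor- over excitatory neuron-like nuclei moved from 0.58 to 0.36 with TMM scaling over the classes of a library, and that of Lrrtm1 in Lamp5- over CA1-like nuclei from 0.0016 to -0.25. The cause was not tested in any of these. Single members were followed through the alternatives only for the 27 genotype results with an unadjusted p under 0.05 (edgeR) and the 2 calls by sex. Of those comparisons, 409 kept their direction and side of the threshold, 5 gained and 2 lost the call and 1 changed sign. The 27 had been picked by a small p and none was called, so these counts do not extend to the other member tests. Leaving out each library in turn gave 0 to 0 calls in the excitatory and inhibitory classes in the 3 contrasts, and the other classes were not run. Leiden resolution 0.5 was not run for subtypes, which come from a second clustering.

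No paired analysis was possible because the replicate numbers were given in accession order and no label ties mice across groups. Depth limits Lrrtm1 and Lrrtm2 most, and Cck- and CA2-like nuclei had too few libraries for a test.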

Other observations

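Fibroblast-like nuclei held Nlgn2 at 69.8 CPM ± 33.5 (SD, n = 13 libraries), above the neuron classes and near the progenitor level, while Nlgn3 in the same nuclei was 17.2 CPM ± 28.3. Striatal projection neuron-like nuclei, present with at least 20 nuclei in 16 libraries, held Nrxn3 at 8059 CPM ± 2500, Nlgn1 at 3910 CPM ± 883, Lrrtm3 at 578 CPM ± 147 and Lrrtm4 at 3683 CPM ± 984. The host gene Ctnna3 was at 1264 CPM ± 322 in ependymal-like nuclei, where Lrrtm3 was at 93.0 CPM ± 31.8. Ctnna3 was called lower in females by edgeR in excitatory (-0.81) and inhibitory (-0.68) neuron-like nuclei, and the 4 host gene calls by sex fell to 0 with the header version as a block, where Ctnna3 stood at -0.26 and -0.11. The other calls were Ctnna1, at -0.58 in inhibitory and -0.42 in cortical-like nuclei, and -0.27 and -0.37 with the block. Over all genes the calls by sex went from 3734 to 145.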
